A study of Mus musculus with 4 samples.

Results

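Interferon-stimulated genes are the genes that cells switch on when interferon reaches them, and 49 of them were followed here through the mesenchymal stroma cells (MSCs) and the CD8+ T cells of Bcr-Abl+ tumors. The genes were listed by symbol, and an array spot belonged to a gene when its accession mapped to that symbol. Of the 49 genes, 46 were matched to a probe among 22911 matched genes in all, and 45 were measured in each comparison. Mx1, Mx2 and Ifitm2 had no matched accession and were not analysed here. Igtp had a single probe, which failed the background uniformity flag on 3 of the 4 arrays, so its levels are given below but it enters no count.

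The tumors came from Bcr-abl+ HPCs, hematopoietic progenitor cells that carry the fusion oncogene of chronic myeloid leukemia and a GFP tag, placed under the skin in Matrigel at 15000 cells per mouse. The hosts were C57BL/6Ncr mice 8 weeks old, either wild type (Wt) or knocked out for Sipa1 (Sipa1-/-), a gene for an inactivator of the small GTPase Rap1, with 5 mice per genotype in the series. All 4 groups therefore bore the same oncogene-driven tumor, and tumor tissue was taken on day 12. MSCs were sorted as GFP- CD45- Ter119- CD31- cells, a gate made of absent markers only, and CD8+ T cells as GFP- TCRb+ CD8+ cells. RNA of each cell type and genotype was hybridized in 1 color to 1 Agilent array, so the study has 4 arrays and no replicates. No test, p-value or standard error between mice could be had, and the number of arrays limits the precision. How many mice went into each RNA sample is not given in the sources used here.

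Interferons are secreted proteins that warn neighboring cells of virus or of activated immune cells. Type I interferons act through the Ifnar receptor and a complex with Stat2 and Irf9, which binds interferon response elements and drives antiviral genes such as Isg15, the Ifit genes and the Oas genes. Interferon gamma, made mainly by T cells and natural killer cells, acts through Ifngr1, Ifngr2, Jak1 and Jak2 and drives Irf1, Irf8, Socs1, the guanylate binding proteins (Gbp) and the immunity related GTPases most strongly. The programs overlap widely, so 13 of the genes (Irf1, Irf8, Socs1, Gbp2 to Gbp7, Igtp, Irgm1, Irgm2 and Iigp1) were set apart only as leaning to interferon gamma.

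Values are log2 signals relative to the 75th percentile of each array, so a level of 1 lies 2-fold above that percentile, and a log2 ratio is the difference of 2 such levels, Sipa1-/- minus Wt unless another order is named. Levels are compared for 1 gene between arrays and never between genes, because probes differ in brightness. Repeat spots of a probe differed in log2 ratio by a median SD of 0.034 for the MSC pair and 0.029 for the CD8+ T pair, and different probes of a gene by a median SD of 0.137 and 0.107. These errors hold spot and probe noise and no spread between mice. Both Sipa1 probes were lower on the Sipa1-/- arrays, from 3.05 to 1.46 and from 5.03 to 3.78 in MSCs and from 3.43 to 1.39 and from 5.40 to 3.73 in CD8+ T cells. The sorts carried RNA of other cells to different extents. In MSCs all 11 measured B-lineage markers were lower by at least 2-fold without Sipa1, with a summed level (in units of the 75th percentile) of 687 in Wt and 42.6 in Sipa1-/- cells, and all 8 pan-leukocyte markers were lower, with sums of 143 and 31.3. Fibroblast markers summed to 979 and 1568, with 10 of 11 measured and Pdgfra failing the flags, and macrophage and monocyte markers to 114 and 225. Erythroid markers, of cells the gate should remove, summed to 389 and 409 in MSCs. Markers of plasmacytoid dendritic cells, a major source of type I interferon, summed to 99.7 and 91.2 in MSCs. They summed to 107 and 111 in the CD8+ T sort, with 5 of 6 measured on every array. Most of each sum came from Siglech, which had 1 passing probe in MSCs. Its 2 passing probes in the CD8+ T sort averaged only 2.25 in Wt, so they differed widely in brightness. In MSCs Spib was at least 2-fold lower without Sipa1 and Cox6a2 at least 2-fold higher. The sums thus cannot show whether RNA of these cells was steady. In the CD8+ T sort the 8 T-cell markers measured on every array summed to 515 in Wt and 541 in Sipa1-/- and the granulocyte markers to 621 and 331. The fibroblast markers summed to 207 and 301 there, most of it from Thy1, which T cells also express, and to 41.0 and 125 without Thy1. Fewer cells of a type and less RNA per cell cannot be told apart in such bulk RNA.

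In CD8+ T cells most of the interferon-stimulated genes read lower on the Sipa1-/- array, by small amounts. Of 45 genes, 29 were lower and 16 higher, against 53.9% of all 14339 measured genes lower, and the median log2 ratio was -0.25 against -0.02 for all genes. Only Rsad2 and Oas2 were at least 2-fold lower, where 1.4% of all genes were, and none was at least 2-fold higher, where 2.66% of all genes were. At a smaller step of 0.5 log2 units, chosen after the values were seen, 14 of the 45 genes were lower, 31.1% of them, against 4.04% of all genes, and Iigp1 alone was higher by that much, against 8.33%. These 14 were Rsad2, Oas2, Isg15, Oasl1, Oasl2, Ifit1, Ifit3, Eif2ak2, Rtp4, Isg20, Ifi44, Irf7, Dhx58 and Ifitm3, and none of them leans to interferon gamma. The count depends on the processing. At their nearest to 0 over the alternatives, Ifitm3 lay at -0.38, Dhx58 and Irf7 at -0.40, Isg20 at -0.47 and Rtp4 at -0.49. Ifi44, dim at -2.88 and -3.47, lay at -0.24. The rest of the 14 stayed past the step, Eif2ak2 barely at -0.50. The share of all genes past the step was not counted under the alternatives. The granulocyte markers were lower on the same array, 5 of 8 by at least 2-fold with a median of -1.08, while the T-cell markers had a median of 0.11. The erythroid markers were lower too, 5 of 5, with a median of -1.09. Fibroblast markers were higher on it, 10 of 11 by at least 2-fold with a median of 1.55. Among 11 B-lineage markers, with a median of -0.17, the pre-B genes Vpreb1, Vpreb3 and Igll1 had ratios of -2.04, -1.82 and -2.21. The part of RNA from these other cells in the interferon values was not tested.

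In MSCs the same list sat slightly above the other genes without standing out in size. There 31 genes were higher and 14 lower on the Sipa1-/- array, with 51.8% of all 15298 genes higher, and the median log2 ratio was 0.35 against 0.04. Gbp6 and Iigp1 were at least 2-fold higher, 2 genes of 45 where 19.3% of all genes were, and Gbp7 alone was at least 2-fold lower where 11.3% were. A step of 0.5 log2 units was passed upward by 16 genes, against 32.3% of all genes, and downward by 4, against 25.4%. The shares past either step were thus near or below those of all genes, on arrays where fibroblast markers had a median of 1.35, macrophage and monocyte markers 1.01 and B-lineage markers -4.16. What these other cells contributed was not tested.

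**Figure D1:**
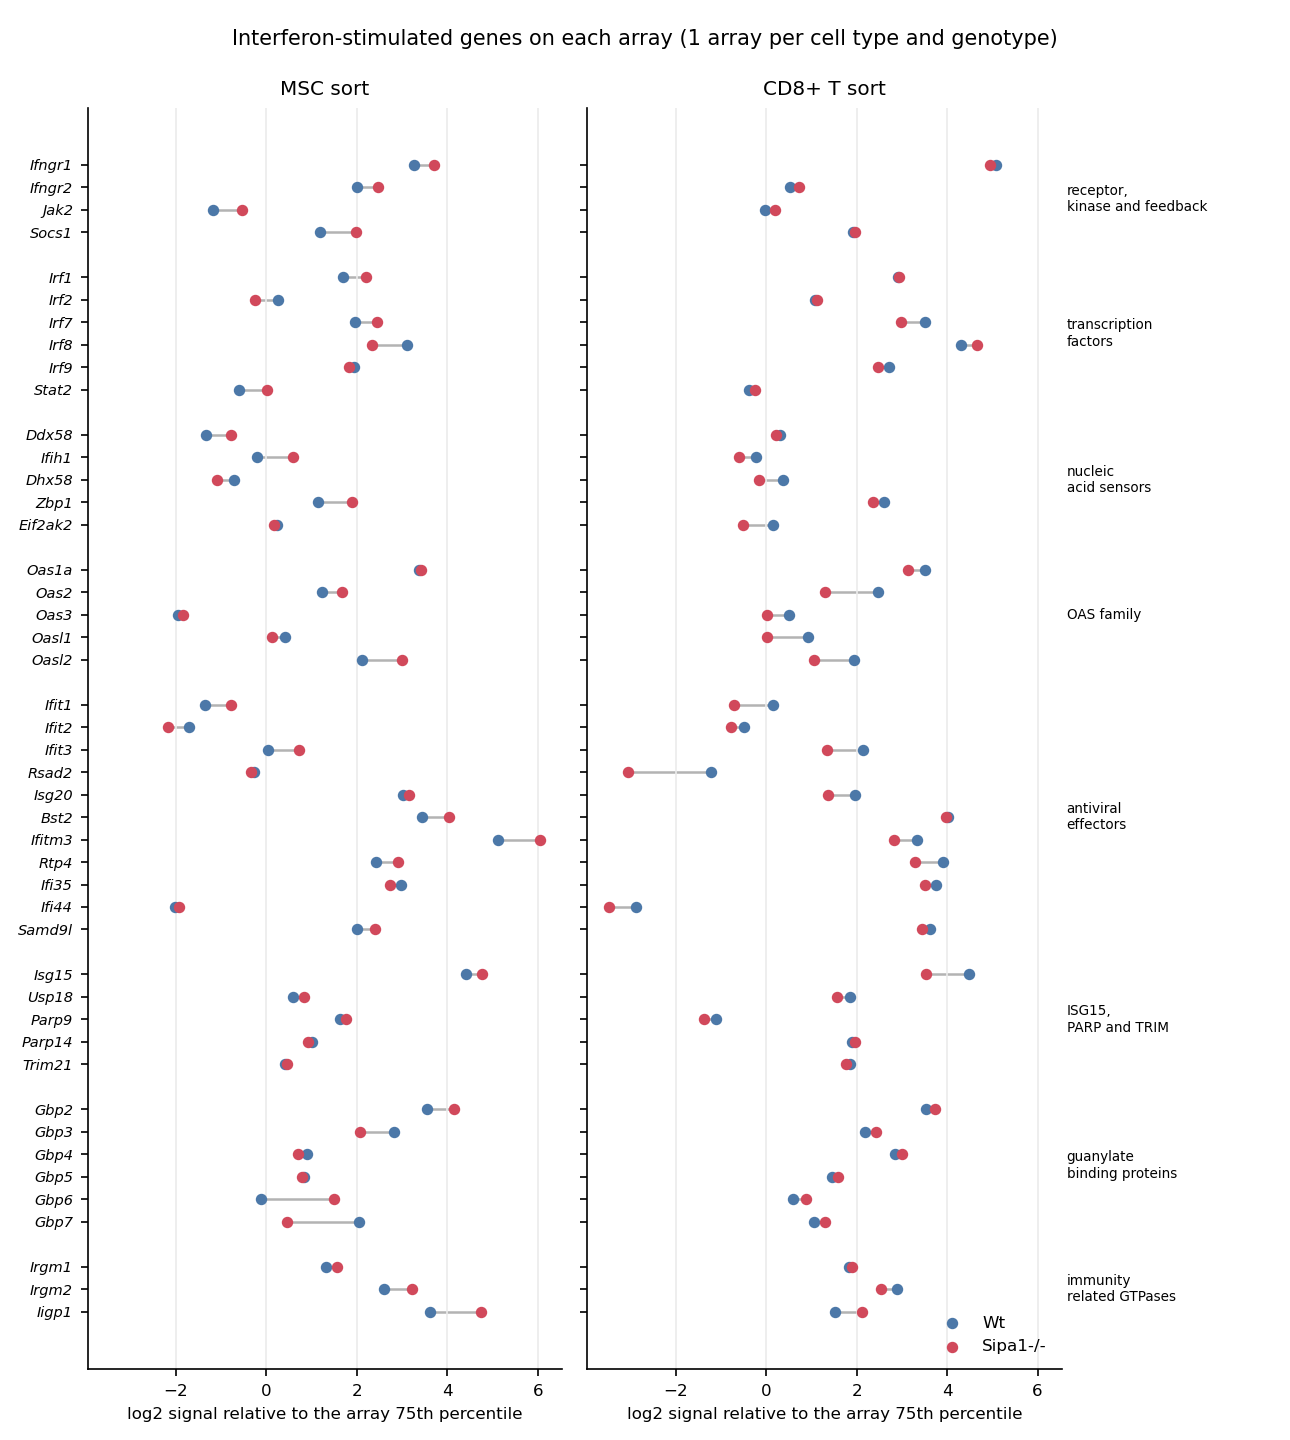
Log2 signal of each of the 45 measured interferon-stimulated genes relative to the 75th percentile of its array, in rows by role, with MSCs on the left and CD8+ T cells on the right. Blue points are the Wt and red points the Sipa1-/- array, with 1 array each and no error bar, and points should be compared within a row and panel only. In the CD8+ T panel all 5 OAS family genes and all 11 antiviral effectors have the red point to the left of the blue one.

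Genes of the receptor and its feedback were a little higher in Sipa1-/- MSCs. Ifngr1, the ligand-binding chain of the interferon gamma receptor, read 3.27 on the Wt and 3.71 on the Sipa1-/- MSC array and 5.09 and 4.94 on the CD8+ T arrays. Its partner chain Ifngr2 read 2.00 and 2.47 in MSCs and 0.54 and 0.72 in CD8+ T cells. The receptor chains thus ordered the cell types differently, with Ifngr1 brighter in CD8+ T cells and Ifngr2 brighter in MSCs in both genotypes. Jak2, the kinase that Ifngr2 holds, read -1.19 and -0.54 in MSCs and -0.02 and 0.20 in CD8+ T cells. Socs1, which blocks the Jak kinases and is induced by them, read 1.19 and 1.99 in MSCs and 1.92 and 1.97 in CD8+ T cells. In log2 ratio all 4 of these genes lay between 0.44 and 0.79 in MSCs, where their median was 0.56, and none passed 2-fold. Such ratios were common on these arrays, where 51.8% of all genes were higher. From 65.7% (Ifngr1) to 76.0% (Socs1) of all genes had a lower ratio. The CD8+ T median was 0.12, with 3 genes higher and Ifngr1 at -0.15.

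The transcription factors did not move together. Irf7, the factor that amplifies type I interferon production, read 3.52 on the Wt and 2.98 on the Sipa1-/- CD8+ T array, a log2 ratio of -0.54, with 3.61% of all genes below it. In MSCs Irf7 went the other way, from 1.95 to 2.44. Irf8, which guides myeloid and dendritic cells and is also on in B cells, read 3.10 and 2.33 in MSCs, a ratio of -0.77 on arrays where the B-lineage markers were lower. In CD8+ T cells Irf8 read 4.30 and 4.65. These 2 factors had opposite signs in both cell types. Irf1, an early activator in the interferon gamma response, read 1.70 and 2.20 in MSCs and 2.91 and 2.93 in CD8+ T cells. Its antagonist Irf2 read 0.25 and -0.26 in MSCs and 1.07 and 1.12 in CD8+ T cells. Among the DNA-binding partners of type I signaling, Stat2 read -0.60 and 0.01 in MSCs and -0.37 and -0.24 in CD8+ T cells. Irf9 read 1.93 and 1.83 in MSCs and 2.71 and 2.48 in CD8+ T cells. Over the 6 factors the median log2 ratio was 0.19 in MSCs and 0.04 in CD8+ T cells.

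Sensors of foreign nucleic acid were lower in Sipa1-/- CD8+ T cells, 5 of 5 where 53.9% of all genes were, with a median log2 ratio of -0.38. Eif2ak2, the kinase PKR that halts translation on double-stranded RNA, read 0.15 and -0.52, a ratio of -0.66. Dhx58, a regulator of the RNA helicase sensors, read 0.38 and -0.16, a ratio of -0.53. Those 2 were the only sensors past 0.5 log2 units. Ifih1, the MDA5 sensor of long double-stranded RNA, had ratios of -0.38 in CD8+ T cells and 0.81 in MSCs, where it read -0.22 and 0.59. Zbp1, a sensor of Z-form nucleic acid, had -0.25 in CD8+ T cells and 0.75 in MSCs. For Ddx58, the RIG-I sensor, the mean over 4 probes was -0.07 in CD8+ T cells, where the probes ranged from -0.47 to 0.11. In MSCs the 5 sensors had a median of 0.55, with Eif2ak2 and Dhx58 at -0.07 and -0.37.

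Most enzymes of the 2'-5' oligoadenylate synthetase family make the 2'-5' oligoadenylates that switch on RNase L. The family had the lowest median of any role in CD8+ T cells, -0.87. All 5 genes were lower there, where 53.9% of all genes were. Oas2 read 2.48 on the Wt and 1.30 on the Sipa1-/- CD8+ T array, 2.25-fold lower, and 1.00% of all genes had a lower ratio. In MSCs Oas2 read 1.23 and 1.67. Oasl1 read 0.94 and 0.02 in CD8+ T cells, a ratio of -0.92, and its 2 probes gave -0.94 and -0.89. Oasl2 read 1.94 and 1.07 in CD8+ T cells, a ratio of -0.87, against 2.11 and 3.01 in MSCs, a ratio of 0.90. Oasl2 thus had ratios of nearly equal size and opposite sign in the 2 cell types. Oas3 and Oas1a were lower in CD8+ T cells by smaller steps, with ratios of -0.48 and -0.39, and lay at 0.12 and 0.05 in MSCs. The MSC median of the family was 0.12. Oas2 rests on 1 probe that passed the flags, and with no flags a dimmer probe enters and its ratio becomes -0.69 in CD8+ T cells and close to 0 in MSCs.

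Antiviral effectors are the genes whose products block virus at entry, translation or budding. In Sipa1-/- CD8+ T cells 11 of 11 were lower, against 53.9% of all genes, with a median log2 ratio of -0.59. Rsad2, the enzyme viperin that makes a chain-terminating nucleotide, had the lowest ratio of all the interferon-stimulated genes. It read -1.22 on the Wt and -3.06 on the Sipa1-/- CD8+ T array, 3.58-fold lower, and its 2 probes gave -1.64 and -2.04. On the MSC arrays Rsad2 read -0.26 and -0.33. Rsad2 is dim in CD8+ T cells, and normexp background correction puts its ratio at -0.97. Ifit1, a reader of foreign RNA caps, read 0.14 and -0.70 in CD8+ T cells and -1.36 and -0.78 in MSCs. Its family member Ifit3 read 2.15 and 1.35 in CD8+ T cells and 0.03 and 0.72 in MSCs. Both Ifit genes thus had ratios near -0.8 in CD8+ T cells and above 0.5 in MSCs, while Ifit2 was lower in both, at -0.29 and -0.46. Ifitm3, which blocks fusion of virus with endosomes, read 3.35 and 2.83 in CD8+ T cells and 5.13 and 6.06 in MSCs, the largest MSC ratio among the effectors at 0.93. Rtp4, Isg20 and Ifi44 had CD8+ T ratios of -0.62, -0.60 and -0.59 and MSC ratios of 0.49, 0.15 and 0.09. Bst2, the tetherin that holds budding virus, had -0.05 in CD8+ T cells and 0.61 in MSCs. Its CD8+ T ratio turned positive with quantile normalization and with the authors' own array scaling, each of which left 10 of 11 effectors lower. Samd9l and Ifi35 closed the group at -0.18 and -0.26 in CD8+ T cells and 0.41 and -0.24 in MSCs. The effectors had a median of 0.41 in MSCs, with 8 higher and 3 lower.

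Isg15, a ubiquitin-like protein that is joined to other proteins, read 4.49 on the Wt and 3.54 on the Sipa1-/- CD8+ T array, 1.93-fold lower, and 1.53% of all genes had a lower ratio. Its MSC levels were 4.42 and 4.77. On this scale the Wt levels of Isg15 in the 2 cell types were thus within 0.07 of each other, and the Sipa1-/- levels 1.23 apart. Both distances depend on how the arrays are scaled. Usp18, the protease that removes Isg15 and restrains the receptor, had ratios of -0.29 in CD8+ T cells and 0.22 in MSCs. Parp9, Trim21 and Parp14 lay between -0.28 and 0.06 in CD8+ T cells and between -0.08 and 0.12 in MSCs.

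The GTPases that lean to interferon gamma showed another pattern. All 6 measured guanylate binding proteins, which coat the vacuoles of intracellular microbes, were higher in Sipa1-/- CD8+ T cells. The steps were only 0.13 to 0.29 log2 units, with a median of 0.23, and 6606 of all 14339 genes were higher there. In MSCs they split. Gbp6 read -0.11 on the Wt and 1.49 on the Sipa1-/- MSC array, 3.04-fold higher, and 0.60 and 0.89 in CD8+ T cells. Gbp7 read 2.05 and 0.46 in MSCs, 3.02-fold lower, and 1.05 and 1.29 in CD8+ T cells. The largest rise and the largest fall of all the interferon-stimulated genes in MSCs were therefore in 1 gene family. Gbp3 read 2.83 and 2.07 in MSCs, a ratio of -0.76, against 2.19 and 2.43 in CD8+ T cells. Gbp2 had an MSC ratio of 0.58, and Gbp4 and Gbp5 had -0.18 and -0.06. In the mouse genome Gbp7 lies between Gbp5 and Gbp3 on chromosome 3, while Gbp6 lies next to Gbp10 on chromosome 5. These genes are close relatives, and cross-hybridization between their probes was not tested.

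Among the immunity related GTPases, which attack the same vacuoles, Iigp1 read 3.62 and 4.74 in MSCs, 2.18-fold higher, and 1.52 and 2.11 in CD8+ T cells, a ratio of 0.60. It was the only one of the 45 genes above 0.5 in both cell types. Irgm2 read 2.60 and 3.22 in MSCs and 2.88 and 2.55 in CD8+ T cells. Irgm1 differed less, with an MSC ratio of 0.26 and a CD8+ T ratio of 0.08. Igtp was well above background on every array in spite of its uneven local background, with levels of 3.86 and 4.38 in MSCs and 4.91 and 5.11 in CD8+ T cells. Over all 12 measured genes that lean to interferon gamma, the Sipa1-/- CD8+ T array read higher for 11 and lower for Irgm2 alone. Their median there was 0.18, and 6606 of all 14339 genes were higher. Past 0.5 log2 units upward there was only Iigp1 of these 12, where 8.33% of all genes were. With the arrays scaled to equal medians, which moves the median of all genes to -0.17, the lower genes among these 12 numbered 5 and their median was 0.04.

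**Figure D2:**
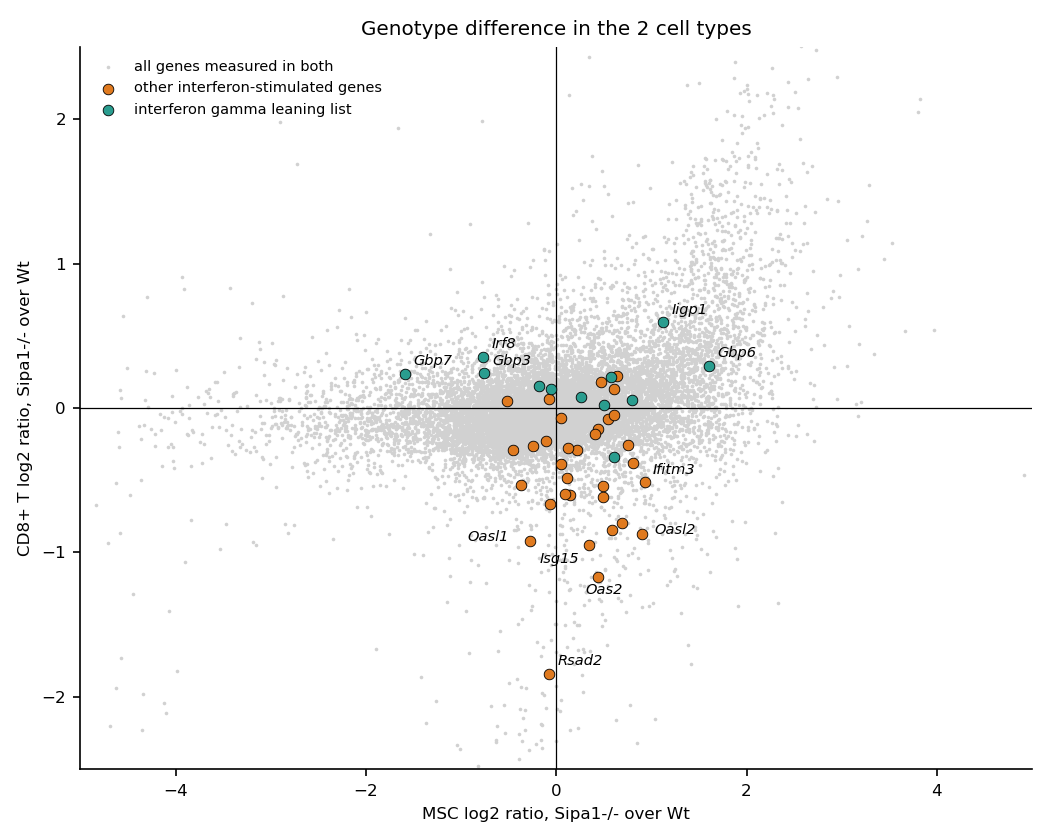
Log2 ratio of Sipa1-/- over Wt in MSCs (horizontal) and in CD8+ T cells (vertical) for each gene measured in both, 1 point per gene, with all genes in grey, the 12 genes of the interferon gamma leaning list in green and the other 33 interferon-stimulated genes in orange. Axes leave out 16 grey genes, and most orange points lie below the horizontal line while 11 of 12 green points lie above it.

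Set side by side, the cell types gave the list medians of opposite sign, 0.35 in MSCs and -0.25 in CD8+ T cells, though many single genes did not follow. The pairs share no array. Of the 45 genes, 22 were higher in Sipa1-/- MSCs and lower in Sipa1-/- CD8+ T cells, 48.9% of them, against 20.2% of 13781 genes measured in both. A further 9 were higher in both, where 28.4% of all genes were, 7 were lower in both, where 34.1% were, and 7 were lower in MSCs and higher in CD8+ T cells, where 17.3% were. Outside the interferon gamma leaning list the first pattern held for 21 of 33 genes, 63.6%, and inside it for Irgm2 alone. Those 33 genes had a median log2 ratio of -0.38 in CD8+ T cells, with 28 lower, and of 0.35 in MSCs, with 24 higher. With receptor, kinase and transcription factor genes left out as well, 25 of 26 effectors and sensors were lower in CD8+ T cells (median -0.50). Of all genes 53.9% were lower there, and Parp14 was the exception at 0.06. The lists were chosen with earlier results of these data known. The roles left out held all the other higher genes among the 33, 5 in all with Parp14, so the count of 25 is no separate support. Bst2, Ddx58 and Trim21, at -0.05 to -0.07, turned higher with the authors' own array scaling.

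**Figure D3:**
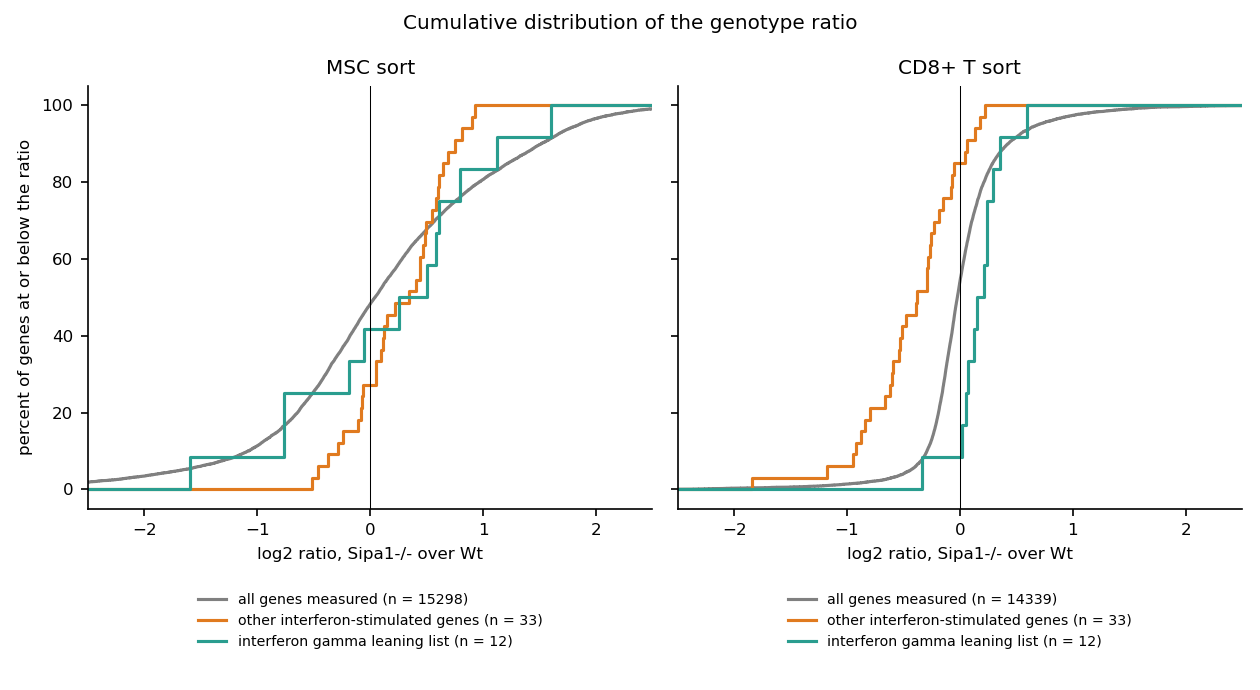
Percent of genes at or below each log2 ratio of Sipa1-/- over Wt, in MSCs on the left and CD8+ T cells on the right, for all measured genes (grey), the 33 other interferon-stimulated genes (orange) and the 12 genes that lean to interferon gamma (green). In CD8+ T cells the orange curve lies to the left of the grey one and the green curve mostly to its right, with medians of -0.38, -0.02 and 0.18, while in MSCs the colored curves cross the grey one.

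The processing moved these medians less than the distance between the lists in CD8+ T cells. Relative to the median of all genes, the median of the 33 genes lay between -0.43 and -0.26 in CD8+ T cells over 8 other ways of processing, and that of the interferon gamma leaning genes between 0.15 and 0.28. In MSCs the same medians ran from 0.15 to 0.46 and from 0.33 to 0.46, so the lists did not separate there. Scaling to equal medians and the authors' own array scaling could not change these relative medians. Each moves every gene of a pair, and so the median of all genes, by the same constant. Those ways of processing therefore add no check here, and the ranges come from the others.

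**Figure D4:**
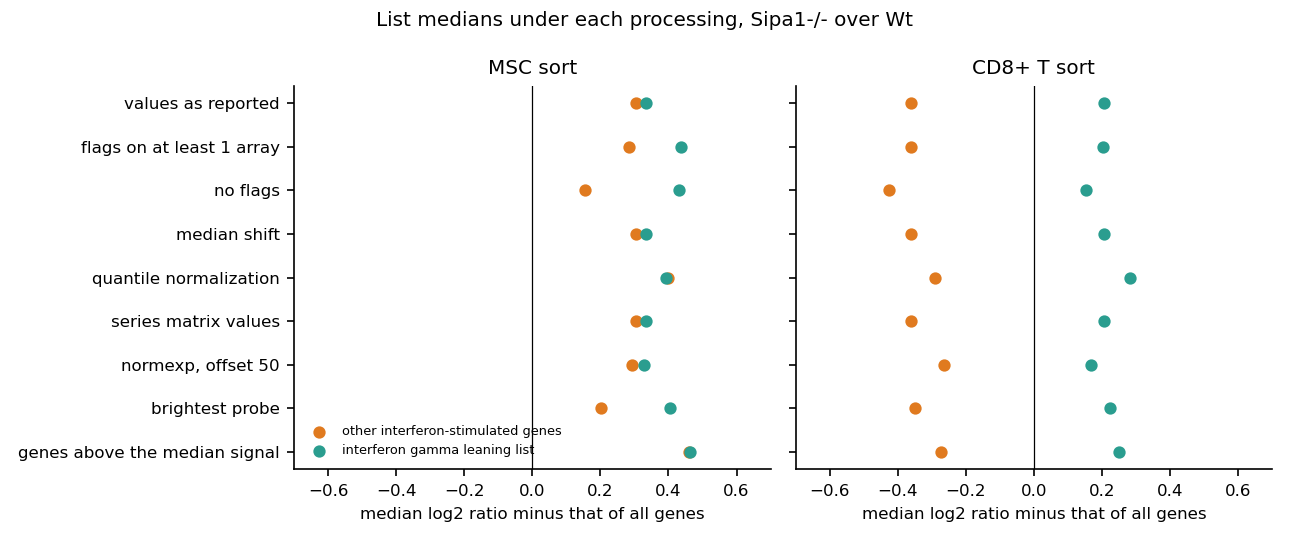
Median log2 ratio of Sipa1-/- over Wt minus the median of all genes under each way of processing (rows), for the interferon gamma leaning list (green) and the other interferon-stimulated genes (orange). In CD8+ T cells every green point is right of 0 and every orange point left of it, and in MSCs both colors are right of 0. Points for scaling to equal medians (median shift) and for the authors' own array scaling (series matrix) could not differ from the main values.

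The promoters of the genes show what they share beyond their names. In RefSeq windows of assembly GRCm38.p6, from 250 bases before to 50 bases after the start of a gene, the core of the interferon response element, GAAA NN GAAA on either strand (N is any base), was in 23 of the 37 interferon-stimulated genes that have a window, 62.2%, against 3.99% of 27025 genes. The gamma activated site TTCNNNGAA, a palindrome, was in 14 of 37, 37.8%, against 9.55%. The windows shown belong to the genes with the 3 largest rises and the 3 largest falls in MSCs among those with a core, and to Isg15 and Rsad2, which were added after their values were seen as examples of genes lower in Sipa1-/- CD8+ T cells. Gbp6 and Iigp1, the genes at least 2-fold higher in MSCs, have no window, so their promoters were not examined. Each is printed 5′ to 3′ on the strand of the gene, with the cores in capitals, and overlapping cores run together.
Isg15, chr4:156200845-156200926, minus strand: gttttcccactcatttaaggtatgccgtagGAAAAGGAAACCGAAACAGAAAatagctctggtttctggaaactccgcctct
Rsad2, chr12:26456533-26456602, minus strand: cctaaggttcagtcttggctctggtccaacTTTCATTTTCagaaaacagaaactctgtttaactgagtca
Socs1, chr16:10785574-10785649, minus strand: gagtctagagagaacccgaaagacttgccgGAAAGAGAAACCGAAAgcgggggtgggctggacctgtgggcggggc
Ifitm3, chr7:141010715-141010742, minus strand: GAAAAGGAAActtctgaGAAACCGAAAc
Ifih1, chr2:62646206-62646235, minus strand: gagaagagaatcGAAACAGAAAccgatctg
Gbp7, chr3:142530253-142530322, plus strand: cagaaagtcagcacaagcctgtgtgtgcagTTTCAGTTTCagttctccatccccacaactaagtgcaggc
Gbp3, chr3:142559969-142560043, plus strand: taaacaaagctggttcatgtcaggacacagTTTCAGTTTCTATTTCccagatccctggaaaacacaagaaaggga
Irf2, chr8:46739495-46739543, plus strand: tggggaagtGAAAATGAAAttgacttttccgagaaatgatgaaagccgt

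Isg15 has 3 overlapping cores, the first starting 78 bases before the start site, and Socs1 has 2, the first at 83 bases. In Rsad2 the single core starts 120 bases before the start site, in Gbp7 53 bases and in Irf2 241 bases before it, and the cores of Gbp3 start 45 and 39 bases before it. Those of Ifitm3 and Ifih1 lie past the start site. The cores thus occur in genes that were higher and in genes that were lower, in either cell type. Over the 21 measured interferon-stimulated genes with a core, the median log2 ratio was -0.07 in CD8+ T cells, with 13 lower, and over the 14 with a window and no core it was -0.25, with 10 lower. The 425 other genes with a core had a median of -0.05 there, and all genes with a window had -0.03. In MSCs the interferon-stimulated genes with a core had a median of 0.35 and the 448 other genes with one 0.02.

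Between cell types, the interferon-stimulated genes were on the whole brighter in CD8+ T cells in Wt mice. In Sipa1-/- mice the shares past 2-fold were near those of all genes. In Wt mice 18 of 45 genes were at least 2-fold lower in MSCs than in CD8+ T cells, where 12.8% of all genes were, and 5 at least 2-fold higher, where 17.3% were, with a median log2 ratio of MSC over CD8+ T of -0.73 against -0.06 for all 14225 genes. The 5 higher in MSCs were Iigp1, Ifitm3, Ifngr2, Isg20 and Gbp7, at 2.10, 1.78, 1.46, 1.04 and 1.00. Oas3 was lowest, at -2.47, followed by Ifit3 at -2.12 and Gbp4 at -1.95. In Sipa1-/- mice 10 genes were at least 2-fold lower in MSCs, where 18.7% of all genes were, and 9 higher, where 21.9% were, with a median of -0.37 against -0.18. The comparisons between cell types share their arrays with those between genotypes, so the shift is the same difference seen from another side. Rsad2 went from 0.96 in Wt to 2.72 in Sipa1-/- mice, Oasl2 from 0.16 to 1.94 and Isg15 from -0.07 to 1.23. Gbp7 went from 1.00 to -0.83 and Irf8 from -1.20 to -2.32. With the authors' own array scaling, which puts the median of all genes at 0.39 in Wt and 0.34 in Sipa1-/- mice, the medians of the list were -0.27 and 0.16, so the direction in Sipa1-/- mice rests on the scaling.

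**Figure D5:**
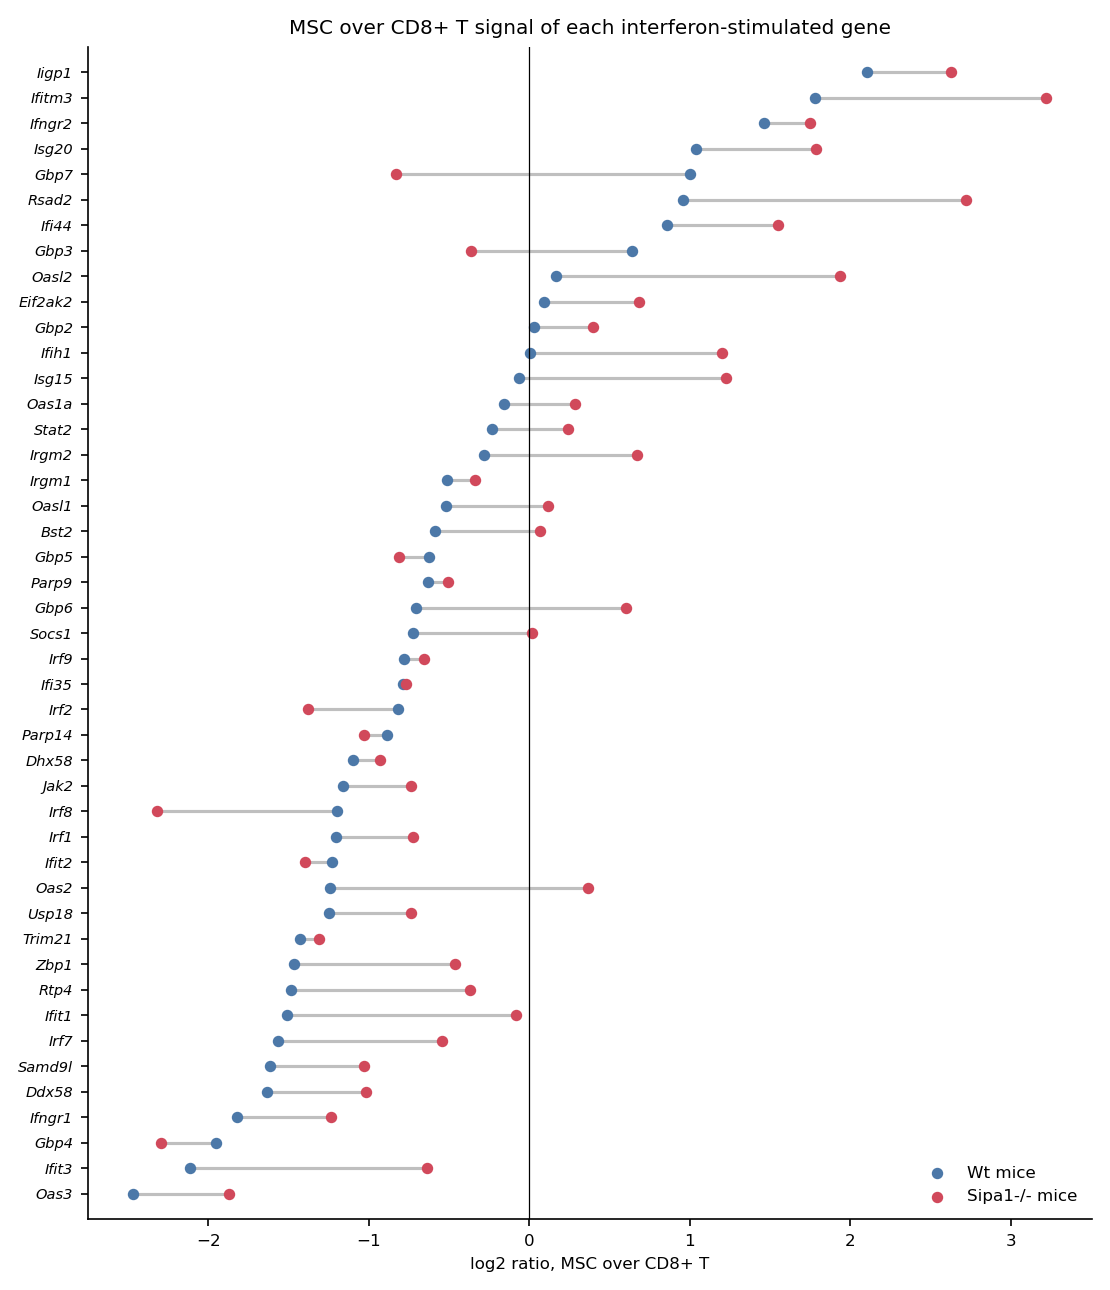
Log2 ratio of MSC over CD8+ T signal for each of the 45 interferon-stimulated genes, in Wt mice (blue) and Sipa1-/- mice (red), ordered by the Wt ratio, 1 array per cell type and genotype. Rsad2, Oas2 and Oasl2 have the red point far to the right of the blue one, and Gbp7 and Irf8 have it to the left.

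Genes around the response gave the following values, to be read against the 19.3% of all genes at least 2-fold higher and 11.3% lower in MSCs. Of the 9 interferon genes looked for, Ifng, Ifna5 and Ifnl3 passed the flags in each cell type, and Ifnb1 did not. Ifng, the gene of interferon gamma, read 3.98 on the Wt and 4.85 on the Sipa1-/- CD8+ T array, a log2 ratio of 0.87, and was dim in MSCs at -3.19 and -2.09. Among 8 other receptor and kinase genes none passed 2-fold in MSCs. In CD8+ T cells Ifnlr1, a chain of the interferon lambda receptor, was lower at -1.27 and -3.36. Of 10 measured adaptors upstream of interferon, Ikbke and Tlr3 were at least 2-fold higher in MSCs, with ratios of 1.13 and 1.03, and Irf5, a factor of B and myeloid cells, was lower at -2.30. Of 6 negative regulators Socs3 was at least 2-fold higher in MSCs, at 1.04, and lower in CD8+ T cells, at -0.71, while Ptpn6, a phosphatase of blood cells, had -1.56 in MSCs.

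Other interferon targets outside the list, 43 by name, gave 37 measured genes in MSCs, of which 10 were at least 2-fold higher, against 19.3% of all genes, and 3 lower, against 11.3%. Their median log2 ratio was 0.23, against 0.04 for all genes. The T-cell chemokine Cxcl9 read 2.33 and 4.58 in MSCs and 2.18 and 2.74 in CD8+ T cells. Its relative Cxcl10 read 2.46 and 3.77 in MSCs and 2.17 and 1.61 in CD8+ T cells. Both were thus higher in Sipa1-/- MSCs, while their CD8+ T ratios, 0.56 and -0.55, had opposite signs. Gbp8, another guanylate binding protein, had an MSC ratio of 1.27 and Ifi204, a DNA sensor, 1.17. The 3 lower in MSCs were Epsti1, Nlrc5 and Lgals9, at -1.59, -1.37 and -1.15, with Epsti1 dim at -4.02 and -5.60. The 10 higher include Xaf1, whose 2 probes gave -0.78 and 5.92 in MSCs. Of 38 measured in CD8+ T cells 25 were lower, with a median of -0.07, against 53.9% of all genes lower and a median of -0.02. Past 2-fold, where 1.4% of all genes were lower and 2.66% higher, Ifitm1 and Slfn8 were lower and Xaf1 was higher. Ifitm1 read 4.01 and 1.53 and Slfn8 read 0.51 and -1.43. The 2 probes of Slfn8 gave ratios of -3.53 and -0.35, and those of Xaf1 -1.04 and 6.06, so neither mean describes its probes.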

How the data were processed

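MSCs and CD8+ T cells of Wt and Sipa1-/- mice were profiled on 4 Agilent one-color arrays, 1 per group, all on 1 slide. The deposited scanner intensity values had been background-corrected by the authors with Feature Extraction (version 9.1 in the submitters' notes, 12.0.3.1 in the file headers) and not normalized between arrays. The deposited series matrix holds, as a signal, the same intensity values times 1 constant per array, and was used as an alternative. Signals were put on the log2 scale minus the 75th percentile of 59305 non-control spots. Spots had to pass the study's flags (saturation, spot and background uniformity, above background) on both arrays of a pair. Between 60.3% and 65.3% of spots were well above background and 0 were saturated. Spots of a probe, then probes of a gene, were averaged. Accessions were named through RefSeq GRCm38.p6, which matched 57.6% of spots, and 31 of the genes had 1 probe. Promoters came from the same release.

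A log2 ratio of 1 was the threshold and no test was run. The steps were tested on simulated data. Genes and lists were chosen with earlier results of these data known. Values on each array were given for genes at least 2-fold apart and for receptor and transcription factor genes, and for other genes to fill out each role. Alternatives were flags on 1 array, no flags, median shift, quantile normalization, the series matrix, normexp with offset 50 on the median spot signal, only the brightest probe per gene, and only genes whose signal exceeded the median. The software was Python 3.11.15, numpy 2.4.6, pandas 2.3.3, matplotlib 3.10.9, R 4.3.3 and limma 3.58.1.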

Additional observations from a re-analysis of the deposited data

Results flagged for a closer look

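The median log2 ratio of Sipa1-/- over Wt lay on opposite sides of 0 in the 2 cell types, at least 0.5 apart, for several groups of interferon-stimulated genes. With 1 array per group the difference between cell types was not tested. Over all measured genes of the list the MSC median was 0.35 and the CD8+ T median -0.25, and over those outside the interferon gamma leaning list 0.35 and -0.38. The OAS family had 0.12 and -0.87, the antiviral effectors 0.41 and -0.59, and the nucleic acid sensors 0.55 and -0.38.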

How the results depend on the processing

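None of the 8 alternatives reversed a 2-fold difference between genotypes. That covers Gbp6, Gbp7 and Iigp1 in MSCs and Oas2 and Rsad2 in CD8+ T cells. Median shift and the series matrix could not have done so, as their constants are small. Single genes were not followed in this way between cell types. In MSCs, Sipa1-/- over Wt, the median of 0.35 became 0.30 with no flags, 0.21 with median shift, 0.41 with quantile normalization and 0.55 with the series matrix, and the 2 genes at least 2-fold higher became 1 with median shift, where Iigp1 lay at 0.98, and 5 with the series matrix. In CD8+ T cells the median of -0.25 became -0.40 with median shift, -0.19 with quantile normalization, -0.12 with the series matrix, -0.20 with normexp and -0.16 when dim genes were left out (those below the median signal). The 2 genes at least 2-fold lower there became 5 with median shift and 1 with no flags (Rsad2), with normexp (Oas2) and without dim genes (Oas2). For MSC over CD8+ T in Wt mice the median of -0.73 became -0.78 with flags on 1 array, -0.78 with no flags, -0.96 with median shift, -0.69 with quantile normalization, -0.27 with the series matrix and -0.68 with normexp. The 5 genes higher became 3 with median shift and 8 with the series matrix, and the 18 lower became 10 with the series matrix. In Sipa1-/- mice the median of -0.37 became -0.42 with flags on 1 array, -0.42 with no flags, -0.59 with median shift, 0.16 with the series matrix and -0.32 with normexp, and the 10 lower became 3 with the series matrix. Median shift and the series matrix move every gene of a pair by 1 constant. They put the median of all genes at -0.10 and 0.25 in MSCs and at -0.17 and 0.11 in CD8+ T cells, and of all genes past 2-fold they put the higher ones at 54.1% and 74.1% in MSCs, against 63.1%, and at 52.5% and 76.3% in CD8+ T cells, against 65.5%. That CD8+ T share was 52.4% with normexp and 48.9% without dim genes. No paired analysis was possible because each group has 1 array, and no array could be left out for the same reason. Dim genes such as Rsad2 in CD8+ T cells are limited by their signal over background.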

Other observations

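Xaf1, an interferon-induced partner of an apoptosis inhibitor, had 2 probes that disagree. In Sipa1-/- over Wt MSCs they gave log2 ratios of -0.78 and 5.92, so its mean of 2.57 describes neither probe. The same gene had a mean of 2.51 in CD8+ T cells. Slfn5 and Mlkl, interferon targets outside the list, had log2 ratios of 1.44 and 1.26 in MSCs and of -0.26 and -0.12 in CD8+ T cells. Nlrc5, the activator of MHC class I genes, read 0.08 and -1.29 in MSCs and 1.61 and 2.02 in CD8+ T cells. Its 2 probes gave ratios of -1.62 and -1.11 in MSCs. In CD8+ T cells they gave -0.31 and 1.14, of opposite sign, so no direction can be read there.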
